A study of Mus musculus with 19 samples.

Results

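The proteases that cut the extracellular matrix and their tissue inhibitors were followed in the mouse ovary over 4 ages. The genes were those named Mmp (matrix metalloproteases), Timp (tissue inhibitors of metalloproteases) or Adamts (secreted proteases with thrombospondin repeats) followed by a number, with Adamts1 left out. This rule took 45 of the 36172 genes in the count table, and 35 of the 45 were expressed, which here means a mean of at least 1 CPM (the counts of a gene scaled to a common library size) over all libraries. The expressed genes were 16 of 23 Mmp, 4 of 4 Timp and 15 of 18 Adamts genes. The RNA came from ovaries of C57BL/6 females, a common inbred mouse strain, with 5 libraries at 3 months of age, 5 at 6 months, 5 at 9 months and 4 at 12 months. No genotype, drug or diet separates the groups, and the labels carry nothing on the stage of the oestrous cycle.

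As background, MMPs are zinc proteases, made as inactive proenzymes, that cut collagens, gelatin, laminin, elastin and other matrix proteins. TIMPs bind their active sites, and TIMP3 also inhibits ADAMTS enzymes. ADAMTS enzymes fall into groups by substrate: some trim the ends of procollagen, some cut large proteoglycans such as versican and aggrecan, and some act on fibrillin microfibrils. In the ovary these enzymes are known for follicle growth, the rupture of the follicle wall at ovulation, and the building and regression of the corpus luteum.

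Library totals ran from 10851519 to 14302207 estimated counts. Oocyte and follicle markers were present at every age: 7 oocyte genes summed to between 222 and 343 CPM at 3 months, between 12.9 and 103 CPM at 9 months and between 45.3 and 104 CPM at 12 months, and all 7 fell at both later ages. Transcripts of other tissues were also present. Alb, the liver albumin gene, read 44.0, 109, 362, 16.2 and 3.04 CPM in replicates 1 to 5 at 9 months and at most 5.12 CPM in every library of the other ages. Transcripts of lymph node B cells (Cr2 over 5 CPM) marked replicates 1 and 2 at 9 months and replicate 2 at 12 months. The 6 oviduct genes, mostly Ovgp1, summed to between 1810 and 2930 CPM at 3 months, between 2200 and 6400 CPM at 9 months and between 2440 and 5300 CPM at 12 months.

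The most abundant transcripts per length were inhibitors and membrane or stromal MMPs. On the scale of CPM per kb of transcript, averaged over the 19 libraries, Timp2 stood at 109, Timp3 at 98.9, Mmp14 at 63.3, Mmp11 at 58.8, Mmp2 at 43.7 and Timp1 at 43.4. MMP14 is a membrane-bound collagenase that, together with TIMP2, activates the gelatinase MMP2, so the 3 genes of that activation complex were among the 5 highest. Adamts10 with 17.8 and Adamts2 with 17.1 CPM per kb were the highest ADAMTS genes. Mmp13 had the lowest mean of the expressed genes, 1.13 CPM, and Mmp10, at 0.955 CPM, lay just under the limit. The genes under it were Mmp10, Mmp25, Mmp27, Mmp1a, Mmp1b, Mmp20, Mmp21, Adamts13, Adamts18 and Adamts20. Of these 10, 3 (Mmp10, Mmp25 and Mmp27) had enough counts to be tested with the 35, and none of the 3 was called in any comparison.

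**Figure D1:**
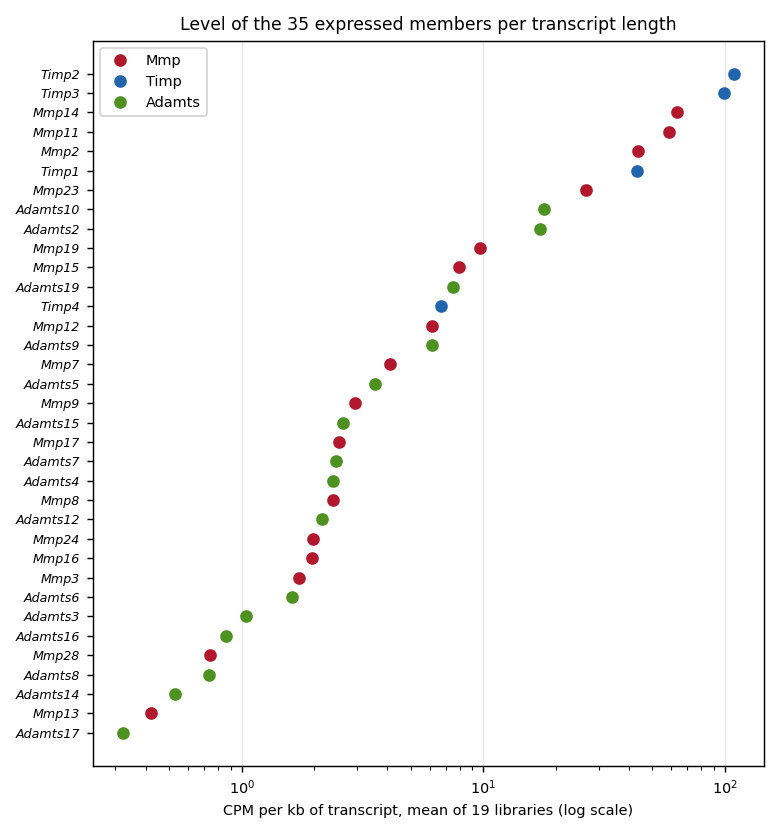
Mean level of each expressed gene over the 19 libraries, in CPM per kb of transcript on a log axis, coloured by family. Timp2 (109) and Timp3 (98.9) stand at the top, and the ADAMTS genes all lie at or below 17.8.

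Ages were compared by the quasi-likelihood test of edgeR over all 15518 genes with enough counts, and a gene was called at a Benjamini-Hochberg adjusted p under 0.05. Between 3 and 9 months 16 of the 35 expressed genes were called, 10 higher and 6 lower, against 25.0% of all genes tested (11.3% higher and 13.6% lower). All 7 Mmp genes that were called rose. Of the 15 Adamts genes 2 rose and 6 fell, and of the 4 Timp genes 1 rose. Between 3 and 12 months 9 were called, 4 higher and 5 lower, against 22.4% of all genes (10.9% higher and 11.5% lower). The trend over the 4 ages called 11, 6 upward and 5 downward, against 29.5% of all genes (14.7% upward and 14.8% downward). Upward were Mmp3, Mmp7, Mmp15, Mmp19, Adamts3 and Adamts14, and downward Adamts2, Adamts5, Adamts6, Adamts17 and Adamts19. The upward calls of Mmp3 and Mmp19 were lost without replicate 1, 2, 3 or 5 of 3 months, that of Mmp15 without replicate 1, 3 or 4 of 3 months or 4 of 12 months, and that of Adamts14 without replicate 1 of 12 months. The labels do not say whether libraries of an age came from separate mice, so the p-values measure the spread between these libraries only. In RNA from bulk tissue, fewer cells of a type and less RNA per cell cannot be told apart.

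Changes of the 35 genes had a median of 0.30 on the log2 scale between 3 and 9 months and 0.12 between 3 and 12 months, where the medians over all genes tested were 0.01 and 0.02. Of these 35 genes 16 had their highest age mean at 9 months, compared with 25.0% of all genes tested, and 6 had it at 12 months, compared with 30.3%. Of the 35 genes 7 were called at both 9 and 12 months, and 17 were called in no comparison. The matching shares of all genes tested were not computed, so these counts have no background to be read against. The libraries of 9 months all lay above those of 3 months in 7 of the 35 genes (5.52% of all genes tested) and all below them in 5 (9.42%). At 12 months the corresponding counts were 3 (6.72%) and 5 (9.75%). Between 3 and 6 months edgeR called none of the 35 (0.0193% of all genes), and DESeq2 called none (47 of all genes tested). By edgeR 2, Adamts2 and Adamts19, had an unadjusted p under 0.05. The share of all genes under that unadjusted limit was not computed.

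**Figure D2:**
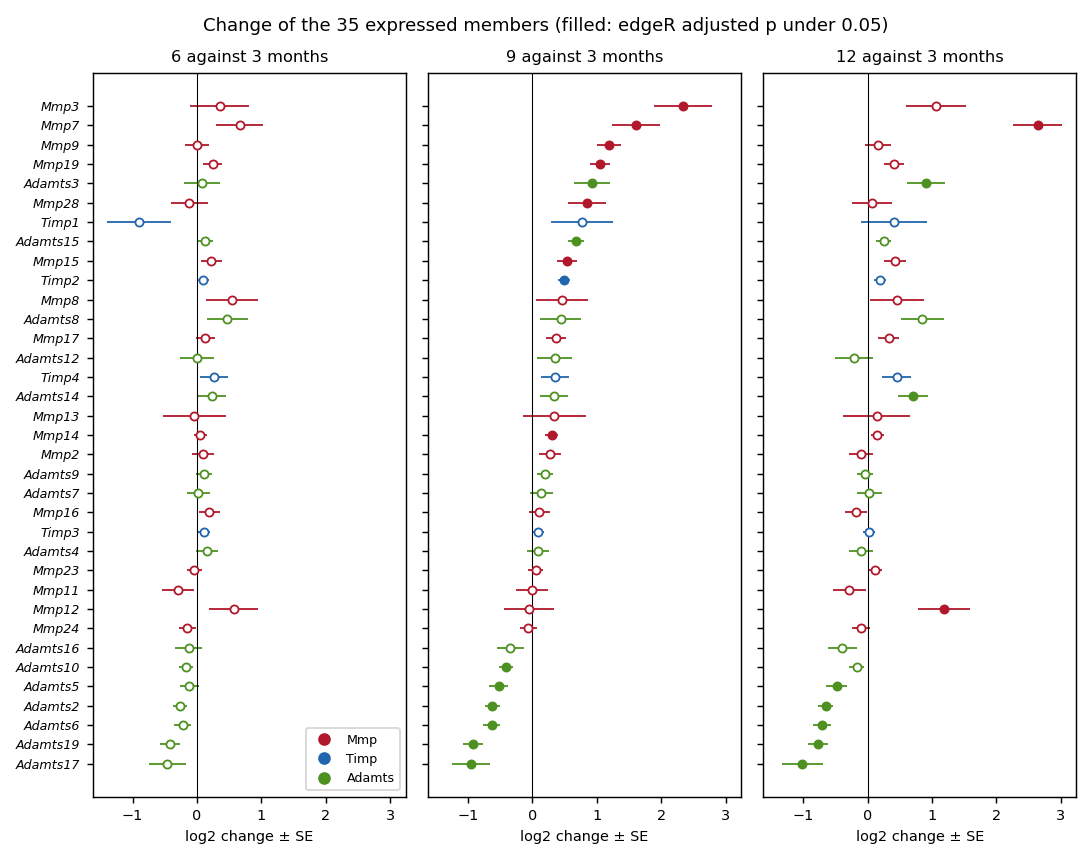
Log2 change ± SE of each expressed gene at 6, 9 and 12 months against the 3-month libraries, ordered by the change at 9 months. Filled points passed the test: none at 6 months, 16 at 9 months and 9 at 12 months, and the points of the 5 genes that fell at both 9 and 12 months are all Adamts genes.

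The count at 9 months rested in part on the 3 libraries with the most liver RNA. Without replicates 1 to 3 of 9 months, which leaves 2 libraries at that age, 8 of the 35 were called, 6 higher and 2 lower, and 7 of those 8 were among the 16. The 7 were Mmp9, Mmp19, Mmp15, Timp2, Adamts15, Adamts2 and Adamts19. The number called over all genes went from 3872 to 1118 in the same step.

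Of the expressed genes 5 lie in the Mmp cluster of mouse chromosome 9, which holds 10 Mmp genes of the rule at chr9:7272514-7699585 (GRCm38.p6). Their order there is Mmp13, Mmp12, Mmp1b, Mmp3, Mmp1a, Mmp10, Mmp8, Mmp27, Mmp20 and Mmp7, and the expressed ones are Mmp13, Mmp12, Mmp3, Mmp8 and Mmp7. Within this cluster Mmp3, Mmp7 and Mmp12 were called at some age and Mmp8 and Mmp13 at none. The 150 bases before the first listed start of the 5 are shown because some of these neighbours were called and others were not. Whether their courses with age differ from each other was not tested. They are RefSeq sequences of GRCm38.p6, plus strand, written 5′ to 3′, with matches to the AP-1 motif TGANTCA and the TATA box TATAAA in capitals. Mmp13 covers chr9:7272364-7272513, Mmp12 chr9:7344247-7344396, Mmp3 chr9:7445672-7445821, Mmp8 chr9:7558279-7558428 and Mmp7 chr9:7691940-7692089.
Mmp13: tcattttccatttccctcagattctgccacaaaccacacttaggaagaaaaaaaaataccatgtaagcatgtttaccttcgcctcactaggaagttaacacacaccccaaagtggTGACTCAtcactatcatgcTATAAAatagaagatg
Mmp12: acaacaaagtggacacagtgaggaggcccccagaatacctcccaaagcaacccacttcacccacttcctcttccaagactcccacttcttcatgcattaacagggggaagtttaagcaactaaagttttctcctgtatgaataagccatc
Mmp3: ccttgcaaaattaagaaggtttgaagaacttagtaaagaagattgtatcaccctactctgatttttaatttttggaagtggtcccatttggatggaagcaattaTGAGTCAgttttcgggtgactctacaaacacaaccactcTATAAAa
Mmp8: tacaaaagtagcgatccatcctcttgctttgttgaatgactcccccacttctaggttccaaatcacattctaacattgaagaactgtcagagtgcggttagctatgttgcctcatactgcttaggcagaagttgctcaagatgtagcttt
Mmp7: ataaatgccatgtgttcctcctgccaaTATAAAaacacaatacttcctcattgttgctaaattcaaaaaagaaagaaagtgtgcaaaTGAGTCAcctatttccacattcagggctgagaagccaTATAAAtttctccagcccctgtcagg

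AP-1, the dimer of FOS and JUN proteins, is a well-known regulator of MMP genes. In these windows TGANTCA began at -35 in Mmp13, -46 in Mmp3 and -63 in Mmp7, counted back from the first listed start of each gene. Where transcription starts in these ovaries was not measured. Mmp8 held no match to either motif. Mmp12 held no match to TGANTCA before its first listed start and 1 at -44 before its second listed start. That second window, chr9:7347224-7347373, lies inside the gene. Mmp7 also has a second listed start, and the 150 bases before it, chr9:7692191-7692340, held no match to either motif. TATAAA began at -16 in Mmp13, at -7 in Mmp3 and at -123 and -26 in Mmp7. On both strands of the 250 bases before each gene's first listed start, TGANTCA was present in 6.87% of 27025 promoters and in 3 of the 21 expressed genes that had an entry. TATAAA was present in 13% of all promoters and in 3 of those 21. Mmp3, Mmp7 and Mmp13 all held TGANTCA, and of these Mmp13 was not called. Mmp13 lay near the limit of expression, with 1.04 CPM at 3 months and 1.31 CPM at 9 months (log2 change 0.34 ± 0.49). The part of AP-1 in the levels of these genes was not tested.

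Mmp9 encodes gelatinase B, which cuts denatured collagen and basement membrane collagen and is made by macrophages and neutrophils, among others. At 3 months its 5 libraries measured 6.68, 7.32, 7.61, 6.92 and 5.90 CPM, and at 9 months 16.8, 24.3, 14.1, 13.7 and 9.59 CPM. The ages did not overlap. At 12 months the 4 libraries were back within 7.19 and 8.09 CPM, below every library of 9 months. The log2 change was 1.19 ± 0.19 (SE) between 3 and 9 months, with an edgeR adjusted p of 0.000369, and 0.16 ± 0.20 between 3 and 12 months (adjusted p = 0.609).

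Between 9 and 12 months the Mmp9 level differed by -1.03 ± 0.20 on the log2 scale, with an unadjusted edgeR p of 7.37e-05 and an adjusted p of 0.0645. DESeq2 gave an adjusted p of 0.00108 for the same difference, and over the 30 alternatives that changed the fit or the libraries it ran from 0.00108 to 0.594. The lowest library of 9 months, replicate 5, was also the lowest of its age in the summed markers of several cell types. Its 9 macrophage markers summed to 321 CPM against 442 to 589 CPM in the other 4 libraries, although Cd14 alone, at 19.9 CPM, was the second highest there. Its stroma and fibroblast sum was 4370 CPM against 5990 to 6940 CPM in the others, and it was lowest for the smooth muscle and endothelial sums as well. The same held for the summed lymph node and liver markers, at 4.95 and 13.6 CPM. For the summed granulosa and oocyte markers, at 2690 and 103 CPM, it was instead the highest of its age. The part of these cells and tissues in the Mmp9 values was not tested.

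Mmp19 encodes an MMP that cuts basement membrane components. Its 9-month libraries measured 40.5, 51.4, 57.9, 62.5 and 31.0 CPM, and its 3-month libraries 19.5, 26.5, 22.5, 27.0 and 21.9 CPM. Every library of 9 months stood above every library of 3 months, with replicate 5 again the lowest. The log2 change at 9 months was 1.05 ± 0.15 (edgeR adjusted p = 0.000152). At 12 months the level was 31.3 ± 2.59 CPM (SD, n = 4), a log2 change of 0.41 ± 0.16 from 3 months that was not called (edgeR adjusted p = 0.0663). From 9 to 12 months it differed by -0.64 ± 0.16 on the log2 scale (edgeR adjusted p = 0.0986, DESeq2 adjusted p = 0.0131, range 0.00643 to 0.594 over 30 alternatives).

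Mmp3 encodes stromelysin 1, which cuts proteoglycans, laminin and fibronectin and activates other proenzymes. It was scarce at 3 months, with 1.43, 0.299, 1.51, 2.33 and 0.947 CPM, and reached 4.65, 13.5, 7.00, 5.23 and 2.66 CPM at 9 months. The lowest library of 9 months was still above the highest of 3 months. The fitted change was 2.34 ± 0.45 on the log2 scale (edgeR adjusted p = 0.00119), a 5.05-fold difference with the widest error of the genes that rose. Without the 3 libraries with the most liver RNA, which leaves replicates 4 and 5 of 9 months, it was 1.59 and was no longer called. At 12 months Mmp3 measured 2.81, 4.59, 1.85 and 1.66 CPM, which overlapped the 3-month libraries (edgeR adjusted p = 0.113).

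Across the 35 genes edgeR called none between 9 and 12 months (0.0% of all genes tested), while 8 had an unadjusted p under 0.05 and DESeq2 called 2, Mmp9 and Mmp19, among 252 of all genes. Of these 8, 6 were lower at 12 months: Mmp9, Mmp19, Mmp3, Mmp28, Timp2 and Adamts15. The other 2, Mmp7 and Mmp12, were higher. How many of all genes passed the same unadjusted limit was not counted. Leaving out replicate 5 of 9 months took the edgeR count from 0 to 4, which were Mmp9, Mmp19, Timp2 and Adamts15, all lower at 12 months. In the same step the count over all genes went from 0 to 278, of which 234 were lower.

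Timp2, the inhibitor that takes part in MMP2 activation, moved by less and from a far higher level. Its libraries measured 334, 374, 333, 363 and 349 CPM at 3 months and 441, 586, 508, 531 and 398 CPM at 9 months, with no overlap. Its log2 change was 0.49 ± 0.09 (edgeR adjusted p = 0.000694). At 12 months they measured 376, 462, 399 and 360 CPM, a log2 change of 0.19 ± 0.09 from 3 months that was not called (edgeR adjusted p = 0.149). Mmp14, its partner on the cell surface, measured 173, 214, 165, 172 and 214 CPM at 3 months and 190, 234, 269, 244 and 214 CPM at 9 months. These ranges overlapped. The Mmp14 change at 9 months, 0.30 ± 0.10, was called (edgeR adjusted p = 0.0348), but it lost its call without any of replicates 1, 3 and 4 of 3 months or 2, 3 and 4 of 9 months.

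Mmp2, the gelatinase activated by that pair, had 117, 134, 127, 115 and 143 CPM at 3 months and 131, 167, 190, 184 and 99.5 CPM at 9 months. Its highest values lay in replicates 3 and 4 and its lowest in replicate 5, and the change of 0.28 ± 0.17 was not called (edgeR adjusted p = 0.25). Timp3, the inhibitor held in the matrix, measured 448 ± 59.2 CPM at 3 months and 478 ± 33.2 CPM at 9 months (SD, n = 5 each). Its libraries ran from 383 to 543 CPM over all ages, and its log2 change at 9 months was 0.09 ± 0.09 (edgeR adjusted p = 0.475).

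A membrane-bound and a secreted MMP rose by smaller amounts. Mmp15, a membrane-type MMP related to Mmp14, measured 31.6, 33.5, 32.4, 30.5 and 37.4 CPM at 3 months and 31.6, 44.6, 51.0, 56.6 and 56.0 CPM at 9 months. Replicate 1 of 9 months lay within the 3-month range and the other 4 above it. On the log2 scale the change was 0.54 ± 0.16 (edgeR adjusted p = 0.0187). At 12 months 3 libraries read 33.9, 40.7 and 37.7 CPM and the fourth 64.7 CPM, and the change from 3 months of 0.42 ± 0.17 was not called (edgeR adjusted p = 0.0751). Mmp28, the secreted epilysin, measured 2.40, 2.02, 2.51, 2.55 and 1.09 CPM at 3 months and 5.52, 2.81, 2.66, 4.29 and 3.80 CPM at 9 months. The ages did not overlap, yet the call (log2 change 0.85 ± 0.29, edgeR adjusted p = 0.0361) was lost without any of replicates 2 and 5 of 3 months or 1 and 4 of 9 months.

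Adamts15, of the group that cuts proteoglycans such as versican, also rose between 3 and 9 months. Its libraries measured 13, 13.1, 12.3, 14.7 and 10.9 CPM at 3 months and 22.7, 24.5, 18.6, 20 and 16.3 CPM at 9 months. The ranges were separate, and the log2 change was 0.68 ± 0.12 (edgeR adjusted p = 0.000574). At 12 months it measured 16.1, 13.2, 17.9 and 13.7 CPM, and the change from 3 months of 0.25 ± 0.12 was not called (edgeR adjusted p = 0.149). From 9 to 12 months the ranges overlapped and the difference of -0.42 ± 0.12 was not called (edgeR adjusted p = 0.151).

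**Figure D3:**
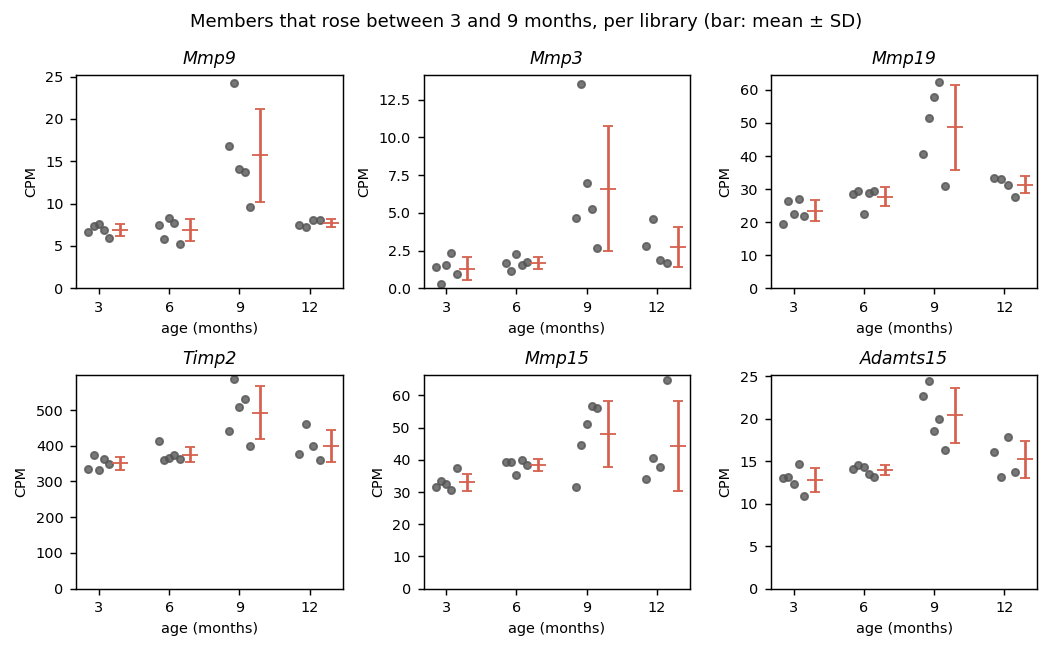
CPM per library at each age for 6 genes that rose between 3 and 9 months, with the mean and SD as bars (n = 5, 5, 5 and 4). In Mmp9, Mmp3, Mmp19, Timp2 and Adamts15 all 5 libraries of 9 months lie above all 5 of 3 months, and the 4 Mmp9 libraries of 12 months lie between 7.19 and 8.09 CPM.

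Markers of several cell types were higher at 9 months together with these genes. The 7 stroma and fibroblast markers summed to between 3250 and 3880 CPM at 3 months, between 4370 and 6940 CPM at 9 months and between 3570 and 4920 CPM at 12 months, and 5 of the 7 rose at 9 months while 1, Tcf21, fell. Of the 6 smooth muscle markers tested 5 rose at 9 months, with a median log2 change of 0.90. The sums of the list lay between 1170 and 1800 CPM at 3 months and between 1870 and 3410 CPM at 9 months. Acta2, also on this list, read 0 CPM in every library and was not tested, and why it read 0 is not known. All 6 endothelial markers rose at 9 months, from sums between 245 and 265 CPM to sums between 356 and 401 CPM, and at 12 months the sums lay between 303 and 349 CPM. The 9 macrophage markers summed to between 282 and 383 CPM at 3 months and between 321 and 589 CPM at 9 months, and 6 of the 9 rose. Of the 8 neutrophil markers Ltf alone was abundant, and S100a8 and S100a9 did not exceed 0.837 and 1.16 CPM in any library, with Ngp, Elane and Mpo at 0 in most. The part of these cell types in the Mmp and Timp values was not tested.

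Mmp7 followed another course, with its highest levels at 12 months. It encodes matrilysin, a small MMP made mainly by epithelial cells. The 5 libraries of 3 months measured 0.75, 2.39, 0.79, 1.31 and 2.62 CPM, and those of 6 months 0.822, 4.04, 2.73, 2.54 and 2.23 CPM. At 9 months they reached 4.65, 5.83, 6.01, 4.13 and 3.50 CPM and at 12 months 11.9, 6.50, 11.8 and 9.14 CPM. All libraries of 12 months lay above all of 9 months, and all of 9 months above all of 3 months. The change over 9 months in the trend was 2.66 ± 0.34 on the log2 scale (edgeR adjusted p = 9.81e-05), and the difference between 3 and 12 months was 2.64 ± 0.38 (edgeR adjusted p = 0.000403), a 6.22-fold rise. The steps from 3 to 6 months (0.66 ± 0.37, edgeR adjusted p = 0.576) and from 9 to 12 months (1.02 ± 0.35, edgeR adjusted p = 0.221) were not called. The call at 9 months (1.61 ± 0.37, edgeR adjusted p = 0.00377) was lost without the 3 libraries with the most liver RNA, where the change was 1.27.

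Epithelial transcripts were higher at these ages as well. The 8 surface epithelium markers summed to between 533 and 729 CPM at 3 months and between 648 and 1070 CPM at 12 months, and 4 of the 8 rose, with Krt7 going from 45.8 ± 3.59 to 102 ± 30.6 CPM (SD, n = 5 and 4). With the oviduct genes as a covariate Mmp7 kept its call at 12 months, and the number of called genes at 12 months went from 9 to 4, with Mmp12, Adamts3, Adamts5, Adamts14 and Adamts17 no longer called. The count over all genes went from 3475 to 1397 in the same step. The part of surface epithelium in the Mmp7 values was not tested.

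Mmp12, the macrophage metalloelastase, was highest at 12 months and rested on few libraries. The 4 libraries of 12 months measured 31.0, 76.2, 49.9 and 24.3 CPM, and the 5 of 3 months 30.8, 15.4, 7.61, 16.2 and 29.3 CPM, so the ages overlapped. In log2 terms it changed by 1.19 ± 0.40 (edgeR adjusted p = 0.0415), and 16 of 32 alternatives kept the call. It was lost without replicate 2, 3 or 4 of 3 months, 2 or 3 of 6 months, 3 of 9 months, or 2 or 3 of 12 months, and the estimates without 1 library ran from 0.82 to 1.41. The 9 macrophage markers summed to 541, 561, 405 and 355 CPM in the same 4 libraries, with differing orders among the markers: Cd68 was highest in replicate 2, Emr1 in replicate 1 and Cd14 in replicate 3. The part of macrophages in the Mmp12 values was not tested. At 9 months Mmp12 measured 9.94, 26.9, 17.8, 17.7 and 23.4 CPM, a log2 change of -0.05 ± 0.39 (edgeR adjusted p = 0.939).

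Of the other Mmp genes, Mmp11, a stromelysin made by stromal cells, varied more among libraries than with age. It measured 84.4, 115, 197, 200 and 135 CPM at 9 months and 147 ± 28.9 CPM at 3 months (SD, n = 5), a log2 change of -0.01 ± 0.25 (edgeR adjusted p = 0.982). Mmp17, a membrane-anchored MMP, had a log2 change of 0.37 ± 0.15 at 9 months that was not called (edgeR adjusted p = 0.0797). The membrane-type genes Mmp16, Mmp23 and Mmp24 stayed within 0.18 log2 units of the 3-month level at both 9 and 12 months, and none of these 3 was called. Mmp8, the collagenase first found in neutrophils, measured between 2.05 and 11.7 CPM at 9 months and between 3.44 and 5.69 CPM at 3 months and was not called (edgeR adjusted p = 0.424).

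Every expressed gene that was called lower was an Adamts gene. Adamts2, Adamts3 and Adamts14 all encode enzymes that trim the amino end of fibrillar procollagens, and they went in opposite directions. Adamts2 measured 177, 142, 168, 163 and 138 CPM at 3 months and 130, 78.0, 112, 109 and 85.5 CPM at 9 months. At 12 months it was at 95.2, 98.7, 93.9 and 114 CPM, and no library of 9 or 12 months reached the lowest of 3 months. On the log2 scale the change was -0.62 ± 0.12 at 9 months (edgeR adjusted p = 0.00105) and -0.65 ± 0.12 at 12 months (edgeR adjusted p = 0.00234).

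Adamts3 measured 2.48, 3.81, 2.66, 3.21 and 2.11 CPM at 3 months and 5.76, 5.47, 7.22, 5.69 and 3.12 CPM at 9 months. At 12 months 3 libraries read 7.66, 6.05 and 5.27 CPM and the fourth 2.49 CPM, inside the 3-month range. In log2 terms it changed by 0.93 ± 0.28 at 9 months (edgeR adjusted p = 0.0193) and 0.91 ± 0.29 at 12 months (edgeR adjusted p = 0.0309), and the trend of 1.10 ± 0.29 kept its call in all 31 alternatives. The call at 9 months was lost without replicate 3 of that age, and the call at 12 months without replicate 1, 3 or 5 of 3 months or 1, 2 or 3 of 12 months. Both calls were lost without the libraries with lymph node transcripts, and the call at 12 months also with limma-voom, with limma on the authors' log2 values, with the oviduct covariate and when only the ages compared were fitted. Adamts14 measured 2.25, 2.24, 2.37, 1.46 and 2.7 CPM at 3 months and 4.14, 3.98, 3.41 and 2.87 CPM at 12 months, without overlap. Its log2 change at 12 months was 0.71 ± 0.23 (edgeR adjusted p = 0.0347), and leaving out any of replicates 1 to 4 of 3 months or 1 to 3 of 12 months ended the call.

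The 3 genes differed widely in level. Per kb of transcript Adamts2 went from 21.7 CPM at 3 months to 13.8 CPM at 12 months, while Adamts3 went from 0.725 to 1.36 CPM and Adamts14 from 0.425 to 0.694 CPM. Adamts2 therefore remained the most abundant of the 3 at every age. Pcolce, whose protein enhances the trimming of the other end of procollagens, rose from 154 ± 18.7 CPM at 3 months to 249 ± 66.9 CPM at 9 months (SD, n = 5 each; edgeR adjusted p = 0.00519), and Bmp1, which does that trimming, was not called (106 ± 15.3 and 120 ± 21.2 CPM). Pcolce was named after its values were seen.

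Adamts19 and Adamts17 form a closely related pair of ADAMTS enzymes, and both fell. Adamts19 measured 52.4, 46.3, 57.9, 49.4 and 61.6 CPM at 3 months and 42.8, 35.4, 41.4, 38.1 and 41.8 CPM at 6 months. The values of 9 months were 24.8, 17.9, 38.6, 34.1 and 26.4 CPM and those of 12 months 31.8, 35.7, 25.1 and 32.9 CPM. Every library of 6, 9 or 12 months lay below every library of 3 months. The change at 6 months was -0.42 ± 0.15 on the log2 scale and was not called (edgeR adjusted p = 0.427). The changes of -0.92 ± 0.15 at 9 months and -0.77 ± 0.16 at 12 months were called (edgeR adjusted p = 0.000451 and 0.0038).

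Adamts17 was a low transcript, with 2.33, 1.79, 3.45, 3.86 and 3.50 CPM at 3 months and 0.789, 0.864, 2.21, 1.95 and 1.90 CPM at 9 months. The 12-month libraries measured 1.41, 1.07, 1.71 and 1.74 CPM, all below those of 3 months. Its log2 change was -0.95 ± 0.29 at 9 months and -1.01 ± 0.32 at 12 months (edgeR adjusted p = 0.024 and 0.0283). The call at 9 months was lost without replicate 3, 4 or 5 of 3 months or 1 or 2 of 9 months, and the call at 12 months without replicate 3, 4 or 5 of 3 months or 1, 2 or 3 of 12 months. Without the 3 libraries with lymph node transcripts the change at 9 months was -0.55 and was not called, while the trend of -1.08 ± 0.28 kept its call in all 31 alternatives.

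Adamts6 and Adamts10 are a second related pair, known for acting on fibrillin microfibrils. Adamts6 measured 17.2, 18.2, 15.9, 11.8 and 15.2 CPM at 3 months and 10.1, 9.86, 8.82, 11.6 and 10.3 CPM at 9 months. At 12 months it was at 10.7, 11, 8.46 and 8.24 CPM, again below every library of 3 months. The log2 change was -0.63 ± 0.13 at 9 months (edgeR adjusted p = 0.0018) and -0.70 ± 0.14 at 12 months (edgeR adjusted p = 0.00252). Adamts10 measured 76.4, 92.3, 88.6, 83.4 and 75.2 CPM at 3 months and 70.8, 42.6, 64.9, 70.7 and 65.0 CPM at 9 months, a log2 change of -0.41 ± 0.11 (edgeR adjusted p = 0.0112). At 12 months its libraries measured 65.0, 67.3, 82.8 and 79.5 CPM and overlapped those of 3 months (log2 change -0.17 ± 0.12, edgeR adjusted p = 0.29).

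Among the enzymes that cut versican and aggrecan Adamts5 fell while Adamts15, as given above, rose. Adamts5 measured 44.9, 45.1, 43.4, 48.6 and 47.5 CPM at 3 months and 37.4, 30.3, 29.7, 28.0 and 34.7 CPM at 9 months. Its 12-month libraries measured 26.3, 36.2, 27.7 and 41.3 CPM, so both later ages lay below 3 months without overlap. The log2 change was -0.52 ± 0.15 at 9 months and -0.48 ± 0.16 at 12 months (edgeR adjusted p = 0.0162 and 0.0351), and the call at 12 months was lost without any replicate of 3 months or without replicate 1 or 3 of 12 months. After offsets corrected for transcript length and GC content, Adamts5 was not called at 9 or 12 months or in the trend. Adamts4, Adamts8 and Adamts9 of the same group were not called in any comparison, with log2 changes at 12 months of -0.10 ± 0.18, 0.85 ± 0.33 and -0.04 ± 0.13.

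**Figure D4:**
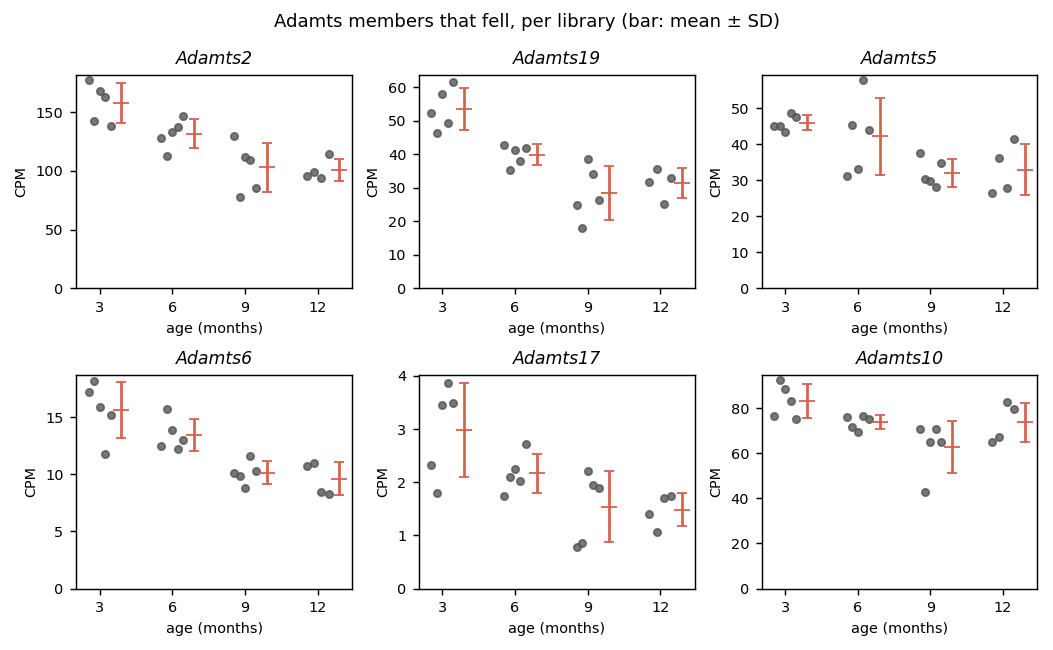
CPM per library at each age for the 6 Adamts genes that fell between 3 and 9 months, with the mean and SD as bars (n = 5, 5, 5 and 4). Libraries of 9 and 3 months overlap only in Adamts17, and the 12-month libraries of Adamts10 (65.0 to 82.8 CPM) overlap those of 3 months.

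Some markers of follicles also fell at the ages at which these Adamts genes fell. Beside the oocyte genes, Amh and Esr2 of the 7 markers of granulosa cells fell, and the sum of the 7 lay between 2090 and 3080 CPM at 3 months between 955 and 2690 CPM at 9 months and between 1510 and 2970 CPM at 12 months. Over the 7 granulosa markers the median log2 change was -0.55 at 9 months and -0.09 at 12 months. Of 4 theca markers 3 fell. Cyp17a1, an enzyme of androgen synthesis, stood at 541 ± 137 CPM at 3 months, 128 ± 138 CPM at 9 months (SD, n = 5 each) and 80.0 ± 28.0 CPM at 12 months (n = 4). The theca sums overlapped (2580 to 4050, 2060 to 4340 and 1710 to 4410 CPM), but most of each sum was 1 gene, Cyp11a1. It ran from 1910 to 3450 CPM at 3 months, from 1990 to 4270 CPM at 9 months and from 1580 to 4300 CPM at 12 months. The part of these follicle cells in the Adamts values was not tested.

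Timp1, a secreted inhibitor of most MMPs, spread more between libraries of an age, relative to its mean, than any other Timp gene; its library values, and those of Adamts12, were chosen after they were seen. At 3 months Timp1 measured 16.1, 64.1, 24.7, 13.8 and 50.3 CPM, at 6 months 16.4, 15.4, 12.7, 20.4 and 25.6 CPM and at 9 months 21.1, 42.4, 66.8, 95.6 and 63.0 CPM. Replicate 2 of 12 months stood at 97.9 CPM while the other 3 lay between 23.4 and 30.1 CPM. The log2 change at 9 months was 0.77 ± 0.48 and was not called (edgeR adjusted p = 0.258).

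The same libraries were high for several genes. Replicates 2 and 5 of 3 months held the 2 highest values of that age for 8 of the 35 genes, which is 22.9% compared with 11.9% of all genes tested, and the 8 included Timp1, Mmp2, Mmp11, Mmp14 and Adamts12. Adamts12, which cuts cartilage oligomeric matrix protein, measured 21.6 and 28.0 CPM in those 2 libraries and between 9.62 and 14.9 CPM in the other 3. At 9 months replicates 3 and 4 held the 2 highest values for 10 of the 35 genes, or 28.6% compared with 12.5% of all genes tested. Mmp14, Mmp2, Mmp11, Timp1 and Mmp19 were among these 10. The top pair held 22.9% of the 35 genes at 6 months (11.4% of all genes tested) and 25.7% at 12 months (18.7%). Each pair was picked because it held the most of the 35 genes at its age, so a share above that of all genes is partly built in.

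**Figure D5:**
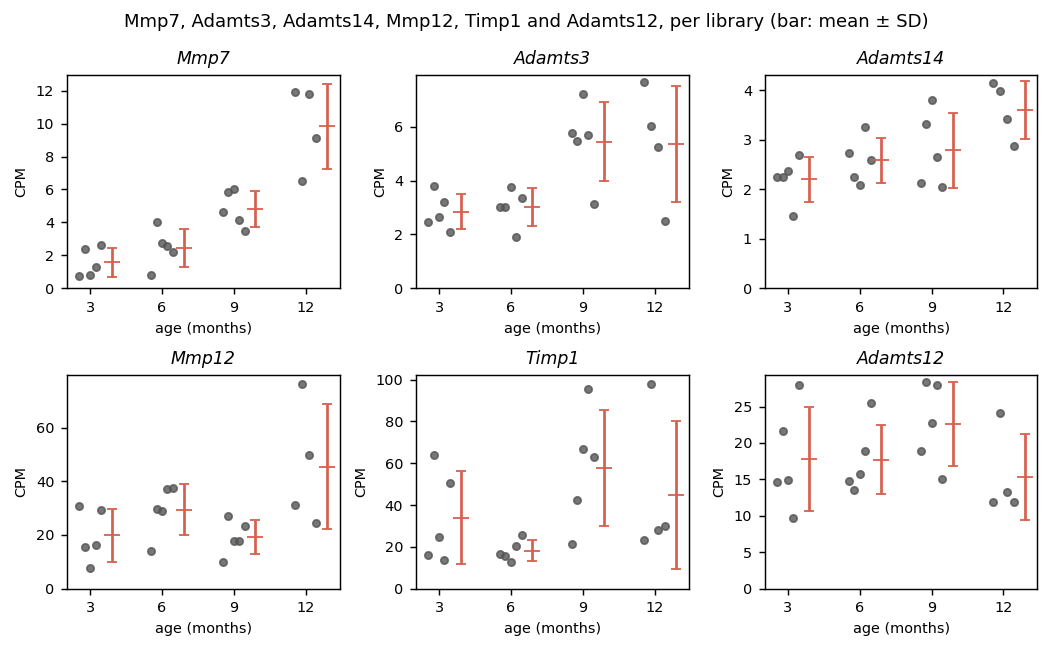
CPM per library at each age for Mmp7, Adamts3, Adamts14, Mmp12, Timp1 and Adamts12, with the mean and SD as bars (n = 5, 5, 5 and 4). Mmp7 goes up from 3 to 12 months, while Timp1 has single libraries far above the others, such as 97.9 CPM at 12 months.

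Other genes of matrix breakdown were counted from lists chosen for their link to these enzymes. In the plasminogen system, which activates several MMPs, Serpine2, an abundant protease inhibitor, fell from 628 ± 115 CPM at 3 months to 346 ± 101 CPM at 9 months (SD, n = 5 each, edgeR adjusted p = 0.00281). At 12 months Serpine2 measured 465 ± 61.1 CPM and was not called against 3 months (edgeR adjusted p = 0.115), while its trend was called downward (edgeR adjusted p = 0.0381). Of 12 activators, membrane regulators and clearance receptors of MMPs 2 rose at 9 months, and at 12 months 2 rose and 1 fell. Cd44, a hyaluronan receptor that holds MMP9 at the cell surface, rose from 40.2 ± 6.45 to 66.9 ± 18.5 CPM at 12 months (edgeR adjusted p = 0.0152), and Lrp1, a receptor that clears MMPs and ADAMTS enzymes, fell from 503 ± 67 to 393 ± 63.0 CPM (edgeR adjusted p = 0.0218).

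ADAMTS-like proteins share the repeats of ADAMTS enzymes but have no protease domain. Of the 6 tested, with papilin counted among them, 2 rose and 1 fell at 9 months, and 1 rose and 1 fell at 12 months. Adamtsl2, which binds fibrillin, fell from 20 ± 6.31 CPM at 3 months to 6.80 ± 1.59 CPM at 9 months and 7.76 ± 0.867 CPM at 12 months, with log2 changes of -1.55 ± 0.20 and -1.36 ± 0.21 (edgeR adjusted p = 7.2e-05 and 0.000663). Papln, papilin, rose from 6.80 ± 2.16 to 17.1 ± 6.76 CPM at 12 months (edgeR adjusted p = 0.00461). Of 5 aggregating proteoglycans and link proteins, substrates of the ADAMTS enzymes or their partners, none was called at 9 or 12 months, and Vcan, versican, measured 121 ± 26.5 CPM at 3 months and 126 ± 41.9 CPM at 12 months.

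Cathepsins, proteases of the lysosome, made up the list with the most calls. At 9 months 8 of 13 rose and 1 fell, with a median log2 change of 0.58, and at 12 months 5 rose and 1 fell, with a median of 0.32. Ctsb rose from 1050 ± 152 to 1880 ± 478 CPM at 12 months and Ctss from 109 ± 33.8 to 214 ± 91.2 CPM (edgeR adjusted p = 0.00318 and 0.0138), while Ctsl fell from 1060 ± 152 to 768 ± 198 CPM (edgeR adjusted p = 0.0242). Of 9 ADAM sheddases, membrane proteases that release cell surface proteins, 3 rose and 1 fell at 9 months, and 2 rose and 2 fell at 12 months. Among these Adam33 went from 9.25 ± 2.81 to 16.6 ± 6.04 CPM and Adam10 from 290 ± 13.2 to 257 ± 17.3 CPM at 12 months (edgeR adjusted p = 0.0128 and 0.0263). Of the 6 genes tested from a list of other matrix processing genes 1 was called at 9 months and none at 12 months. That gene was Pcolce, whose protein enhances trimming, as given above.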

How the data were processed

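RNA sequencing libraries of ovaries were placed in their age groups by the age label. The authors deposited estimated counts per gene, often with decimals, per the file headers, and a table of log2 values set relative to the 3-month libraries. Per the submitters' processing notes the genome was mm10. The aligner, counter and use of strand were not given in the sources used here, so counts of overlapping or closely similar genes are uncertain. A column of values that matched no sample, 1 per file, was not used. The estimated counts were rounded and tested with edgeR 4.0.16 (R 4.3.3; robust quasi-likelihood fit, TMM scaling, minimum count 10, minimum total 15, a mean per age over the 19 libraries, Benjamini-Hochberg adjustment over 15518 genes), after the scripts were tested on simulated data. Trend values are the fitted slope times 9 months. CPM values use TMM factors. Lengths are those of the longest GENCODE transcript of a gene. Alternatives used DESeq2 1.42.0, limma 3.58.1, other filters, thresholds and scaling, covariates and omitted libraries. Members and lists were chosen with earlier results of these data known. By rule, library values could be given for genes called in at least 1 comparison and the 2 most abundant of each family. Timp3 is given by means and a range only. In the main results the library values of Mmp11, Timp1 and Adamts12 lie outside this rule. From each list up to 4 called genes with the smallest p, or the 2 most abundant, could be named. A result of the plasminogen list is not reported here.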

Additional observations from a re-analysis of the deposited data

Results flagged for a closer look

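In each age group of 4 or 5 libraries the highest and lowest value of each expressed gene was set against the others by the gap to its nearest neighbour as a share of the range. Of 140 groups 8 held such a library, and chance alone gives about 1 in 20. Timp2 was high in replicate 1 of 6 months, at 412 CPM against 361 to 373 CPM in the other 4. Adamts10 was low in replicate 2 of 9 months, at 42.6 CPM against 64.9 to 70.8 CPM. Timp1 was high in replicate 2 of 12 months, at 97.9 CPM against 23.4 to 30.1 CPM, and Adamts12 in the same library, at 24.1 CPM against 11.9 to 13.2 CPM. Mmp17 was high in replicate 3 of 12 months, at 26.1 CPM against 14.5 to 15.4 CPM. Replicate 3 of 6 months was low for Mmp19, at 22.5 CPM against 28.5 to 29.5 CPM, and high for Mmp16, at 14.1 CPM against 9.45 to 10.6 CPM. Adamts7 was low in replicate 1 of 6 months, at 7.58 CPM against 13.2 to 15.4 CPM.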

How the results depend on the processing

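The 36 calls of a gene in a comparison were refitted under each alternative other than a stricter threshold, and of these 1069 log2 changes none turned direction and 112 lost their call. Mean CPM values without TMM factors all moved by less than 1 SD (140 values). Of the 36 calls 23 held without each single library and 6 under every alternative. For 12 against 3 months the 9 called genes became 4 at an adjusted p under 0.01, 3 at an adjusted p under 0.05 with at least a doubling or halving, 5 with limma-voom and 4 with the oviduct covariate, and between 4 and 11 when each library was left out; replicate 3 of 3 months or of 12 months gave the 4, and replicate 4 of 3 months gave 5. For 9 against 3 months the 16 became 9 at 0.01, 4 with a doubling or halving and between 14 and 17 with each library left out. They became 8 without the 3 libraries with the most liver transcripts, an alternative chosen after seeing the data. For 12 against 9 months the 0 became 2 with DESeq2 and between 0 and 4 with each library left out, the 4 without replicate 5 of 9 months. The trend's 11 became 7 at 0.01, 4 with a doubling or halving, and between 8 and 14 with each library left out. At 6 against 3 months the count stayed at 0 in every alternative run. No paired analysis was possible because the labels give no replicate number shared between ages.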
